A study of Mus musculus with 20 samples.

Results

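The insulin-like growth factor (IGF) axis was measured in mouse heart ventricles as 9 genes, namely the ligand *Igf1*, the receptors *Igf1r* and *Insr*, and the binding proteins *Igfbp2*, *Igfbp3*, *Igfbp4*, *Igfbp5*, *Igfbp6* and *Igfbp7*. Every probe annotated to one of these symbols was taken, which gave 24 of the 45281 probes on the arrays, and 9 of the 19057 genes named by them. IGF1 is a secreted peptide hormone, made in the liver under growth hormone and also locally in tissues, that signals through a receptor tyrosine kinase to the PI3K, AKT and mTOR cascade and to the MAP kinases. In the heart this pathway is known for driving cardiomyocyte growth and survival. The IGF binding proteins hold IGFs in the circulation and the matrix and either prolong or restrict their access to the receptor.

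The design crossed a heart muscle deletion of *Dnmt3a* and *Dnmt3b*, which encode the enzymes that set new DNA methylation, with aortic constriction. RNA from 6 TAC DKO, 6 TAC CTL, 4 sham DKO and 4 sham CTL mice was hybridised to Illumina bead chips. TAC denotes transverse aortic constriction, a surgical narrowing of the aortic arch that overloads the left ventricle, and sham denotes the control operation. DKO mice were homozygous for floxed *Dnmt3a* and *Dnmt3b* alleles and carried a Cre recombinase under the atrial myosin light chain promoter (*Myl7*). CTL mice carried the same floxed alleles on both chromosomes and no Cre, so that absence of the methyltransferases and presence of Cre cannot be told apart. All mice were male, were operated at 10 to 12 weeks of age and were examined 4 weeks later, at 14 to 16 weeks. The tissue is bulk left ventricle, in which non-myocytes keep both genes, and a lower signal from fewer cells of a type cannot be told apart from less RNA per cell.

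All values below are linear probe intensities, quantile normalized over the 20 arrays. Background was set at the 95th percentile of 1287 probes for olfactory receptors, which was 58.0, and differed little between groups (56.5 to 60.7). At this level, 16 of the 24 probes and 8 of the 9 genes were above background in at least 1 group, against 20945 of all 45281 probes. As deposited, the TAC arrays shared one set of sorted values (median 58.6) and the sham arrays another (median 47.5), so that surgery and normalization set cannot be told apart. Among genes with 2 or more probes past an adjusted p of 0.05, 35.2% for TAC in DKO and 33.2% for TAC in CTL hearts had probes that passed in opposite directions, against 0 of 12 genes for DKO against CTL after TAC. All 9 measured cardiomyocyte markers were above background in every group. The *Dnmt3a* probes were close to background and those of *Dnmt3b* did not pass in any comparison, and since the position of these probes relative to the deleted exons is unknown, they do not check the genotype.

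DNMT3A and DNMT3B methylate cytosines that precede a guanine, and the 8 members with a sequence differed widely in such CG pairs before their start sites. In RefSeq windows of 250 bases upstream of a start site (GRCm38.p6), 8 of the 9 members had an entry, all but *Insr*. The motif searched was CG, which reads the same on both strands. The window of *Igf1r* held 42 CG pairs, and 0.865% of the 32841 windows of all genes held at least as many. *Igfbp3* had 32 (4.59% of windows with at least as many), *Igfbp7* 26 (9.59%), *Igfbp4* 22 (14.8%), the 2 windows of *Igfbp2* 14 and 11 (29.4% and 35.6%), *Igfbp5* 10 (37.8%), *Igfbp6* 7 (46.3%) and *Igf1* 5 (55.6%), where the median over all windows was 6. The windows of *Igf1*, *Igfbp3* and *Igfbp4*, and that of *Igfbp2* with 11, precede a start site inside the annotated gene and not at its 5′ end. Methylation was not measured on these arrays. The windows of *Igf1r*, *Igfbp5* and *Igfbp6* were chosen by their array values. For genotype after TAC, 1 of the 4 *Igf1r* probes had an adjusted p under 0.05 (0.0137 from limma). Its fold of 1.34 was below 1.5, and the result depended on the arrays fitted. *Igfbp5* had the largest genotype difference in sham hearts, but none of its 3 probes passed (adjusted p between 0.703 and 0.769 from limma). *Igfbp6* was the binding protein with the largest rise after TAC. A link between CG pairs and genotype differences was not tested. The 3 windows are written 5′ to 3′ on the strand of the gene, end at the base before the start site, and carry CG pairs in capitals. *Igf1r* lies on the plus strand (chr7:67952007-67952256), *Igfbp5* on the minus strand (chr1:72874866-72875115) and *Igfbp6* on the plus strand (chr15:102143936-102144185).
Igf1r: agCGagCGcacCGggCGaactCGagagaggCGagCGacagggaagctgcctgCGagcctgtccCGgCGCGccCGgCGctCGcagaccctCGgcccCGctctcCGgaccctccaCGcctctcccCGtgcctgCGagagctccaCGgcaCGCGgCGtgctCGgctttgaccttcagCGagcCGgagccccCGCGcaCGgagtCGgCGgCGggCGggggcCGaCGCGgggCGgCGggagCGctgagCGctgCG
Igfbp5: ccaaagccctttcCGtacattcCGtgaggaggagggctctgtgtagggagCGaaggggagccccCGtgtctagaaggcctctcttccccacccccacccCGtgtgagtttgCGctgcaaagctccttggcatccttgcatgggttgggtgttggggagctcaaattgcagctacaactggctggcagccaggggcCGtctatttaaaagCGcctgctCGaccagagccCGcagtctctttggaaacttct
Igfbp6: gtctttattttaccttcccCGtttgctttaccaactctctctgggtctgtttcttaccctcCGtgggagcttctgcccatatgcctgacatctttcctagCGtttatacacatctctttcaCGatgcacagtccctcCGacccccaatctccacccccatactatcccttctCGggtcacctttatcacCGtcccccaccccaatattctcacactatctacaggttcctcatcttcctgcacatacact

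After TAC the ligand, its receptor and a pair of binding proteins were higher in both genotypes. *Igf1*, *Igf1r*, *Igfbp4* and *Igfbp6* each had probes called higher, at folds between 1.65 and 2.19. *Igfbp3* and, in DKO hearts, *Igfbp7* fell on their brightest probes. A probe passed at a Benjamini-Hochberg adjusted p under 0.05 over all 45281 probes in limma, and was called if its fold change also exceeded 1.5. In DKO hearts 6 of the 24 probes were called, 5 higher and 1 lower, where 6.74% of all probes were called (2.46% higher and 4.27% lower). In CTL hearts 5 of the 24 probes were called, all higher, where 5.17% of all probes were called (1.76% higher and 3.4% lower). By adjusted p alone 10 of 24 probes passed in DKO hearts (8 higher and 2 lower), where 28% of all probes passed (15.4% higher and 12.7% lower). In CTL hearts 10 of 24 passed (9 higher and 1 lower), where 22% of all probes passed (11.7% higher and 10.2% lower). TAC and sham arrays did not overlap for 8 of the 24 probes in DKO and 6 in CTL hearts, where 20.5% and 16.1% of all probes did not overlap. Taking the brightest probe of each gene, the median log2 fold change of the 9 genes was 0.37 in DKO and 0.48 in CTL hearts. The median over all probes was 0.02 and 0.01. These medians are for arrays brought to common quantiles. When each array was instead centred on its median, the brightest probes of *Igf1*, *Igf1r* and *Igfbp6* stayed positive and those of *Igfbp3* and *Igfbp7* negative. Those of *Insr* and *Igfbp4* turned negative (-0.095 and -0.012 in DKO, -0.18 and -0.0099 in CTL hearts). That of *Igfbp5* was -0.27 in DKO and 0.04 in CTL hearts. A rise of the 9 genes as a set therefore depended on the scaling.

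**Figure D1:**
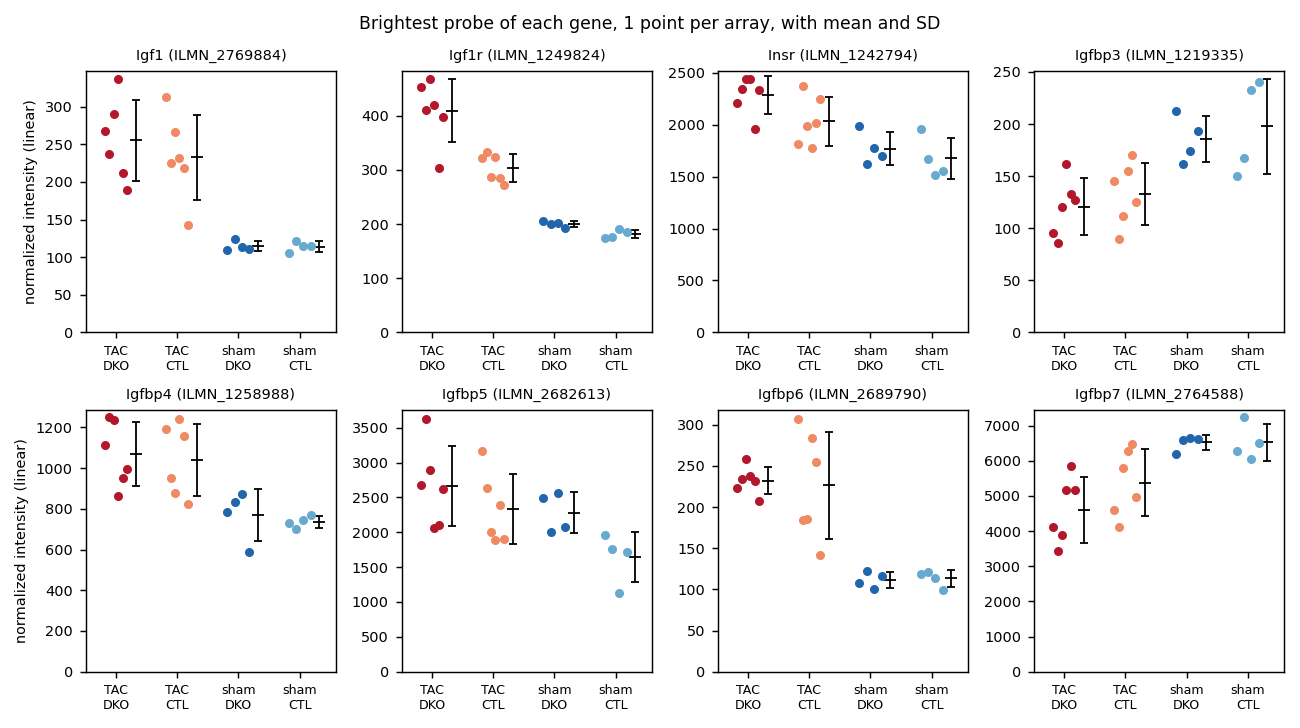
Normalized intensity (linear axis from 0) of the brightest probe of 8 genes, with 1 point per array and the mean with SD beside each of the groups TAC DKO, TAC CTL, sham DKO and sham CTL. All TAC points of *Igf1*, *Igf1r* and *Igfbp6* lie above all sham points, from 143, 272 and 141 upwards in TAC hearts against at most 124, 206 and 123 in sham hearts.

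*Igf1*, the ligand, rose on both of its probes in both genotypes. Its brighter probe (ILMN_2769884) ranged over the 6 TAC DKO arrays from 189.6 to 336 with a median of 252, and over the 6 TAC CTL arrays from 143 to 313 with a median of 228. It read 109, 124, 113 and 111 on the sham DKO arrays and 105, 121, 115 and 115 on the sham CTL arrays. In both genotypes the lowest TAC array stood above the highest sham array, and the spread between TAC arrays was several times that between sham arrays. The log2 fold change was 1.13 in DKO hearts (standard error 0.16, adjusted p = 6.34e-06 from limma) and 0.99 in CTL hearts (standard error 0.16, adjusted p = 4.59e-05). The second *Igf1* probe (ILMN_1225565) rose as well, by 1.06 in DKO and 0.86 in CTL hearts on the log2 scale, again with no overlap between TAC and sham arrays. Both probes stayed past the threshold, with lower values of 0.74 and 0.73 in DKO and 0.61 and 0.52 in CTL hearts, when each array was instead centred on its median.

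*Igf1r*, the receptor tyrosine kinase for IGF1, rose on the 1 of its 4 probes that lay well above background (ILMN_1249824). The intensities were 453, 411, 469, 419, 304 and 398 in TAC DKO hearts, with a median of 415, and 322, 334, 286, 323, 286 and 272 in TAC CTL hearts, with a median of 304. They were 206, 201, 201 and 192 in sham DKO hearts and 175, 177, 191 and 186 in sham CTL hearts. Every TAC array was above every sham array. The log2 fold change was 1.02 in DKO hearts (standard error 0.09, adjusted p = 1.12e-08 from limma) and 0.74 in CTL hearts (standard error 0.09, adjusted p = 1.67e-06). With median-centred arrays it was 0.56 and 0.28, still past the threshold (adjusted p = 2.6e-05 and 0.021). The other 3 *Igf1r* probes lay between 50.4 and 85.4 on all arrays, close to background. Of these ILMN_1239663 passed at 0.24 in DKO and 0.27 in CTL hearts (adjusted p = 0.0423 and 0.0309), but not with median-centred arrays. It also no longer passed in DKO hearts without sham DKO replicate 1 or 2 or TAC DKO replicate 1, 2, 3 or 4, and in CTL hearts without sham CTL replicate 2 or 3 or TAC CTL replicate 1, 2, 3 or 5. The remaining 2 probes did not pass, with log2 fold changes of 0.10 to 0.16.

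*Insr*, the insulin receptor, changed less. Its bright probe (ILMN_1242794) had a mean of 2290 ± 182 in TAC DKO and 2035 ± 237 in TAC CTL hearts (SD, n = 6 each), and of 1772 ± 158 in sham DKO and 1676 ± 201 in sham CTL hearts (SD, n = 4 each). The TAC and sham arrays overlapped in both genotypes. The rise was 0.37 on the log2 scale in DKO hearts (adjusted p = 0.00289 from limma) and 0.28 in CTL hearts (adjusted p = 0.0263). Its direction depended on the scaling, since with median-centred arrays the values were -0.095 in DKO and -0.18 in CTL hearts and did not pass. In CTL hearts it also did not pass on the deposited scale (0.12), with cyclic loess (0.18), or without sham CTL replicate 2, 3 or 4 or TAC CTL replicate 2 or 6 (0.23 to 0.28). The other 2 *Insr* probes lay at or near background, between 42.8 and 63.8.

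Among the binding proteins, *Igfbp6*, which binds IGF2 in preference to IGF1, had the largest rise. Its single probe (ILMN_2689790) ranged from 208 to 258 in TAC DKO hearts (median 233) and from 141 to 308 in TAC CTL hearts (median 220.1). It read 107, 123, 101 and 116 in sham DKO hearts and 119, 121, 114 and 99.1 in sham CTL hearts. Again no TAC array overlapped with a sham array, and the TAC CTL arrays were spread more widely than the TAC DKO arrays. The log2 fold change was 1.06 in DKO hearts (standard error 0.15, adjusted p = 8.18e-06 from limma) and 0.95 in CTL hearts (standard error 0.15, adjusted p = 4.38e-05). *Igfbp6* kept its direction and passed under the 4 scalings, with the lowest values of 0.67 and 0.57 for median-centred arrays.

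*Igfbp4*, a binding protein that restrains IGF action and is cleaved by the protease PAPP-A, rose on both of its probes. The probe ILMN_2694955 averaged 834 ± 119 in TAC DKO and 817 ± 150.3 in TAC CTL hearts (SD, n = 6 each), and 497 ± 84.1 in sham DKO and 488 ± 37.3 in sham CTL hearts (SD, n = 4 each). Its arrays did not overlap between TAC and sham in either genotype, and the log2 fold change was 0.75 in DKO and 0.72 in CTL hearts (adjusted p = 0.000116 and 0.000238 from limma). The brighter probe ILMN_1258988 rose by 0.48 in both genotypes (adjusted p = 0.00578 in DKO and 0.00672 in CTL hearts), below the fold threshold. With median-centred arrays neither passed, with 0.27 and 0.25 for the first and -0.012 and -0.0099 for the second probe in DKO and CTL hearts. In DKO hearts ILMN_1258988 passed under 28 of the 30 alternatives, so that it was lost in 1 more.

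*Igfbp3*, the main carrier of IGFs in blood, had a pair of probes with fold changes of opposite sign. The brighter probe ILMN_1219335 ranged from 86.3 to 162 in TAC DKO hearts (median 124) and from 89.4 to 170.4 in TAC CTL hearts (median 135). It read 213, 162, 174 and 193 in sham DKO and 150, 168, 233 and 241 in sham CTL hearts, so that the groups overlapped. It fell by 0.64 on the log2 scale in DKO hearts, a 1.56-fold change (adjusted p = 0.00742 from limma) and by 0.58 in CTL hearts (adjusted p = 0.0189), where the fold of 1.49 missed the call. The fall in CTL hearts did not pass without sham CTL replicate 3 or 4 (-0.49 and -0.47, adjusted p = 0.0779 and 0.0746). The probe ILMN_2727503 had log2 fold changes of 0.29 in DKO and 0.28 in CTL hearts, which did not pass (adjusted p = 0.0953 and 0.136), but did so on the deposited scale (0.33 in both, adjusted p = 0.0153 and 0.0157). A direction for the gene therefore cannot be given from these arrays.

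*Igfbp7*, a secreted protein abundant in vessels that binds IGFs weakly, fell after TAC in DKO hearts. On its only probe above background (ILMN_2764588) the intensities were 4105, 3427, 3883, 5171, 5858 and 5160.5 in TAC DKO hearts (median 4633) and 4615, 4128, 5801, 6287, 6483 and 4969 in TAC CTL hearts (median 5385). The sham DKO arrays read 6207, 6594, 6659 and 6634 and the sham CTL arrays 6287, 7257, 6054 and 6505. All TAC DKO arrays were below all sham DKO arrays, whereas the CTL groups overlapped. The log2 fold change was -0.53 in DKO hearts (adjusted p = 0.00341 from limma) and -0.29 in CTL hearts (95% confidence interval -0.56 to -0.02, adjusted p = 0.114). In CTL hearts it did pass on the deposited scale (-0.46), with median-centred arrays (-0.76) and with cyclic loess (-0.41), and the difference between the genotypes in the TAC effect was not past the threshold (-0.23, adjusted p = 0.939). The other 4 *Igfbp7* probes lay at background.

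*Igfbp5*, which binds the extracellular matrix as well as IGFs, was measured by 3 bright probes. After TAC in DKO hearts none passed (0.10 to 0.21 on the log2 scale), and in CTL hearts 1 of 3 passed (ILMN_2682613, 0.51, adjusted p = 0.0283 from limma), with 0.25 and 0.32 for the others. That probe no longer passed with each of the other 3 scalings and without sham CTL replicate 3 (0.34, adjusted p = 0.159) or TAC CTL replicate 1 or 2. The direction of *Igfbp5* after TAC depended on the scaling and on the arrays fitted. With median-centred arrays the 3 probes had -0.27 to -0.37 in DKO hearts, and -0.21, -0.16 and 0.04 in CTL hearts, none of which passed. In DKO hearts ILMN_1254358 and ILMN_2964324 were also below 0 on the deposited scale (-0.065 and -0.047) and with cyclic loess (-0.029 and -0.0084). Without TAC DKO replicate 2 ILMN_2964324 had -0.0095, and both probes were below 0 without TAC DKO replicates 2 and 3 together. In DKO hearts ILMN_1254358 had the opposite sign under 4 and ILMN_2964324 under 5 of the 30 alternatives. *Igfbp2*, its direct neighbour on chromosome 1 with 5590 bases between them, was not above background on any array, at 40.4 to 57.3 over its 2 probes.

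**Figure D2:**
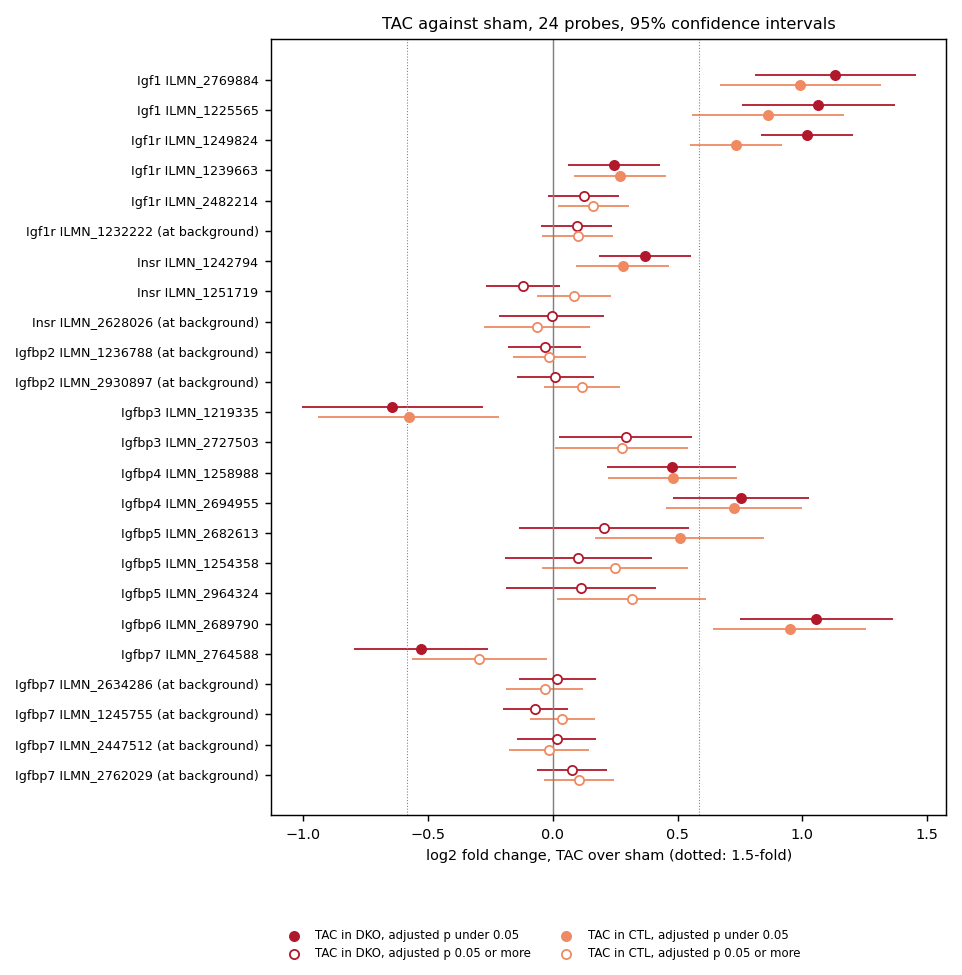
Log2 fold change of TAC over sham with 95% confidence intervals for all 24 probes, in DKO and in CTL hearts, with filled points for an adjusted p under 0.05 and dotted lines at 1.5-fold. The 2 *Igf1* probes, 1 *Igf1r* probe and the *Igfbp6* probe lie between 0.74 and 1.13, whereas the 8 probes that were not above background lie between -0.07 and 0.12.

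**Figure D3:**
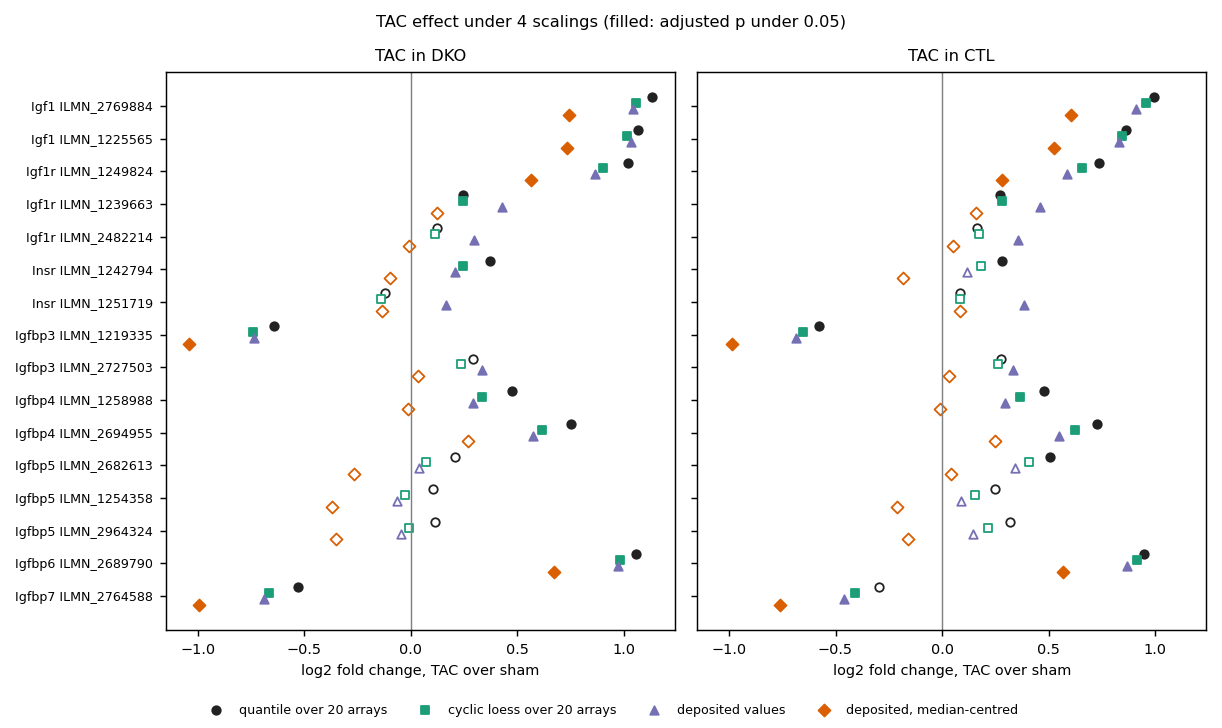
Log2 fold change of TAC over sham for the 16 probes above background under 4 scalings of the arrays, in DKO (left) and CTL hearts (right), filled where the adjusted p was under 0.05. Centring each array on its median moved every probe to the left of the main value, so that *Insr* (ILMN_1242794) went to -0.095 in DKO and -0.18 in CTL hearts, while *Igf1*, *Igf1r* (ILMN_1249824) and *Igfbp6* stayed to the right of 0 and filled.

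Between the genotypes few differences of the IGF axis passed the threshold. After TAC 1 of the 24 probes passed, that of *Igf1r*, which was higher in DKO hearts, and 0 were called, where 0.316% of all probes passed (0.254% higher) and 0.144% were called. The arrays of TAC DKO and TAC CTL hearts overlapped for all 24 probes, where 0.554% of all probes did not overlap. In sham hearts 0 of the 24 probes passed in limma, where 0.119% of all probes passed. At an unadjusted p under 0.05 there were 3 probes after TAC and 3 in sham hearts, where 8.99% and 5.55% of all probes had such a p. The median log2 fold change of the 9 genes for DKO over CTL was 0.09 after TAC and 0.05 in sham hearts, and that of all probes was -0.0006 and -0.003.

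The *Igf1r* probe ILMN_1249824 averaged 409 ± 58.0 in TAC DKO and 304 ± 25.6 in TAC CTL hearts (SD, n = 6 each). Of the TAC DKO arrays 5 stood above all 6 TAC CTL arrays, and replicate 5, at 304, fell within their range. The difference was 0.42 on the log2 scale, a 1.34-fold change below the 1.5-fold threshold (standard error 0.08, 95% confidence interval 0.25 to 0.58, adjusted p = 0.0137 from limma). In sham hearts the probe averaged 199.9 ± 5.66 in DKO and 182 ± 7.60 in CTL (SD, n = 4 each) and did not overlap between genotypes, but the difference of 0.14 did not pass (95% confidence interval -0.07 to 0.34, adjusted p = 0.951). Both intervals rest on 1 spread shared by the 4 groups, although the arrays were spread more widely in TAC than in sham hearts. The sham difference did not pass either when only the sham arrays were fitted. The difference after TAC exceeded that in sham hearts by 0.28 (95% confidence interval 0.02 to 0.54, unadjusted p = 0.0341 and adjusted p = 0.939 from limma). Averaged over both surgeries, a comparison added after the data were seen, the difference was 0.28 (adjusted p = 0.0461), and this was the 1 of 24 probes to pass, where 0.479% of all probes passed. It no longer passed when any 1 array was left out other than TAC DKO replicate 5 or TAC CTL replicate 1, 2 or 4. The difference after TAC no longer passed when only the TAC arrays were fitted (adjusted p = 0.0828) and without TAC CTL replicate 6, TAC DKO replicate 1 or TAC DKO replicate 3 (adjusted p = 0.0507, 0.0504 and 0.0536 for *Igf1r*). TAC DKO replicates 2 and 3 had high atrial genes (*Myl4*, *Sln*), and the summed intensity of the 3 atrial markers was 438 to 6231 in TAC DKO and 277 to 1062 in TAC CTL hearts. Without these 2 arrays the *Igf1r* difference was 0.36 (adjusted p = 0.147), and the part of atrial tissue in it was not tested. The other 3 *Igf1r* probes had differences between -0.005 and 0.04 after TAC, at intensities close to background.

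The 3 probes of *Igfbp5* were higher in all sham DKO than in all sham CTL arrays. ILMN_2682613 read 2495, 1998, 2566 and 2069 in sham DKO and 1959, 1757, 1134 and 1719 in sham CTL hearts. ILMN_1254358 read 2588, 2059, 2394 and 1909.7 in sham DKO and 1869, 1696, 1396 and 1685 in sham CTL hearts. ILMN_2964324 read 1711, 1344, 1689.8 and 1344 in sham DKO and 1299.7, 1158, 949.8 and 1006 in sham CTL hearts. Altogether 4 of the 24 probes did not overlap between the sham genotypes, the fourth being that of *Igf1r*, where 3.89% of all probes did not. The *Igfbp5* probes report on 1 gene and are not independent of each other. The differences were 0.43 to 0.50 on the log2 scale with unadjusted p between 0.0075 and 0.0116, and none passed (adjusted p between 0.703 and 0.769 from limma). After TAC the same probes differed by 0.19 to 0.28 with overlapping arrays (adjusted p between 0.523 and 0.748), and over both surgeries by 0.34 to 0.36 (adjusted p between 0.167 and 0.322).

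For *Igf1* the genotypes differed by 0.15 after TAC (95% confidence interval -0.14 to 0.43) and by 0.01 in sham hearts (-0.35 to 0.36) on ILMN_2769884. The sham interval also carries the spread of the TAC arrays, since 1 spread was fitted per probe. The SD of this probe was 53.8 in TAC DKO and 56.5 in TAC CTL, and 6.74 in sham DKO and 6.80 in sham CTL hearts. For *Insr* (ILMN_1242794) the difference was 0.17 after TAC (95% confidence interval 0.01 to 0.34, adjusted p = 0.53), and for *Igfbp7* (ILMN_2764588) it was -0.23 (95% confidence interval -0.47 to 0.01, adjusted p = 0.58). The intervals of *Igfbp3*, *Igfbp4* and *Igfbp6* included 0 in both settings and reached no further than -0.47 and 0.36. None of the 24 probes passed the test of the interaction between genotype and surgery in limma, where 0.00221% of all probes passed, with 1 probe (*Igf1r*) at an unadjusted p under 0.05, where 4.71% of all probes had such a p.

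**Figure D4:**
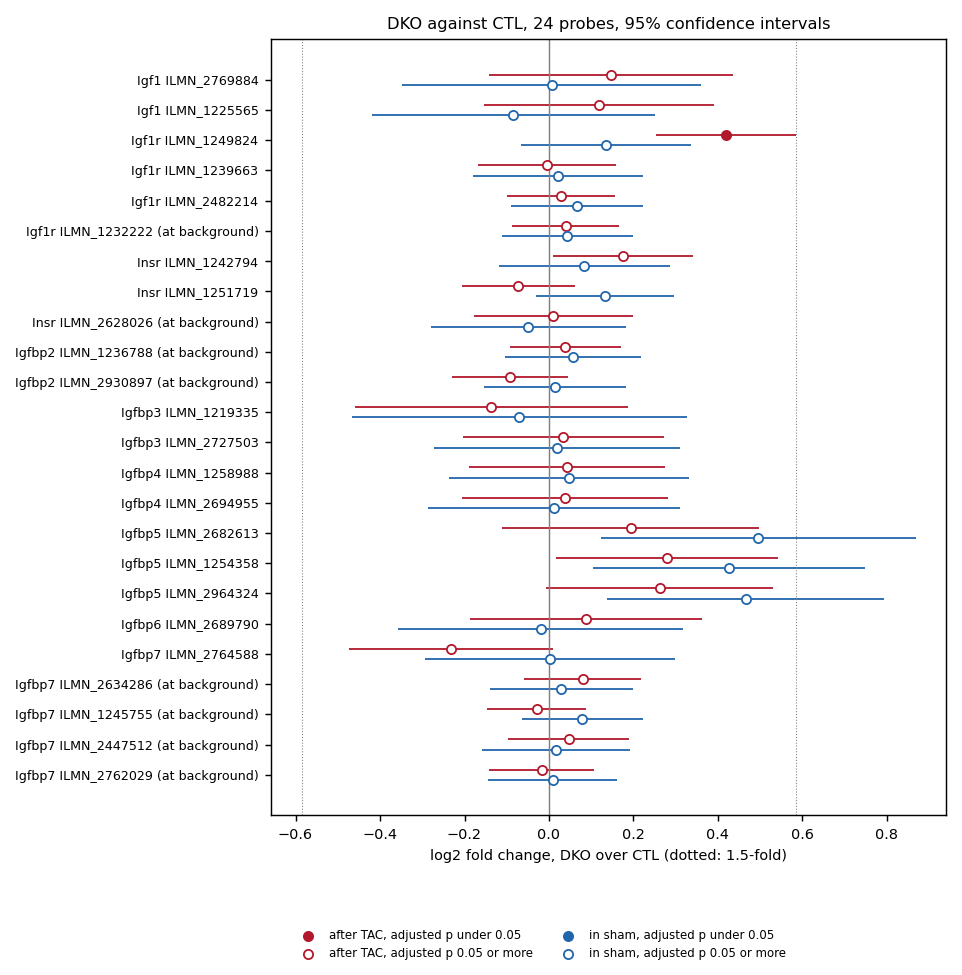
Log2 fold change of DKO over CTL with 95% confidence intervals for all 24 probes, after TAC and in sham hearts, with filled points for an adjusted p under 0.05 and dotted lines at 1.5-fold. The *Igf1r* probe ILMN_1249824 after TAC (0.42) is the single filled point, and the 3 *Igfbp5* probes in sham hearts reach 0.43 to 0.50.

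Of 58 further genes of the pathway, 49 were measured on these arrays, and 9 were not analysed here. Taking the brightest probe of each, 15 rose and 7 fell after TAC in DKO hearts, and 16 rose and 6 fell in CTL hearts, with 27 not passing in each genotype, where 28% and 22% of all probes passed. Of the 49 genes 41 were above background in at least 1 group, against 20945 of all 45281 probes, so that these shares are not for probes of like brightness. *Akt2* was not above background on any array, and *Akt1* was so only in sham DKO hearts. With the fold threshold these became 4 higher and 5 lower in DKO hearts, and 2 higher and 5 lower in CTL hearts, where 6.74% and 5.17% of all probes were called. None of the 49 genes passed for DKO against CTL in limma after TAC or in sham hearts, with 4 and 3 genes at an unadjusted p under 0.05, where 8.99% and 5.55% of all probes had such a p. The median log2 fold change after TAC was 0.13 in DKO and 0.06 in CTL hearts. Directions and folds of the 49 genes are for arrays brought to common quantiles. Whether each gene kept its direction under the other scalings was not tested.

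Among ligands, receptors and carriers, *Igfals*, the acid-labile subunit that joins IGF and IGFBP3 in a ternary complex, rose by 0.78 on the log2 scale in DKO hearts (adjusted p = 0.0152 from limma) and had 0.51 in CTL hearts (adjusted p = 0.134). *Igf2r*, which clears IGF2, rose by 0.39 in DKO and 0.35 in CTL hearts, and the imprinted ligand *Igf2* did not pass (0.24 and -0.37). *Stc2*, an inhibitor of the PAPP-A protease that cleaves IGFBP4, rose by 1.13 in DKO and 0.73 in CTL hearts, with means of 252 and 207 in TAC DKO and TAC CTL hearts against 115 and 125 in sham DKO and sham CTL hearts. *Irs2*, an adaptor of both receptors, was called in DKO hearts (0.99) and passed without the fold in CTL hearts (0.55).

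Of 9 adaptors and brakes of the receptors, 4 rose and 2 fell in DKO hearts, and 5 rose and 2 fell in CTL hearts. Of the genes that lower receptor signals, *Grb14*, an adaptor that binds the activated insulin receptor, fell by 1.11 in DKO and by 0.88 in CTL hearts, and its second probe fell as well (-1.02 and -0.84). *Ptpn1*, a phosphatase that acts on both receptors, fell by 0.93 and by 0.80 in DKO and CTL hearts. Downstream, *Mtor*, the growth kinase, rose by 0.87 and 0.82, and *Pik3ca*, the catalytic PI3K subunit, fell by 1.12 and 0.83. For *Map2k1* and *Tsc1*, a MAP kinase kinase and an inhibitor of mTOR, which were also called lower, the TAC means lay near background (57.1 in TAC DKO and 64.3 in TAC CTL hearts for *Map2k1*, and 53.3 and 56.4 for *Tsc1*), so that no fold is given, and a dimmer *Tsc1* probe rose by 0.21 in DKO hearts. For some genes other probes did not follow the brightest one. The growth hormone receptor *Ghr* had -0.18 in DKO and -0.22 in CTL hearts on its brightest probe, neither passing, and -1.26 and -0.83 on a dimmer one, and *Pdpk1* had 0.09 and -0.11 on its brightest and -0.68 and -0.61 on another probe.

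**Figure D5:**
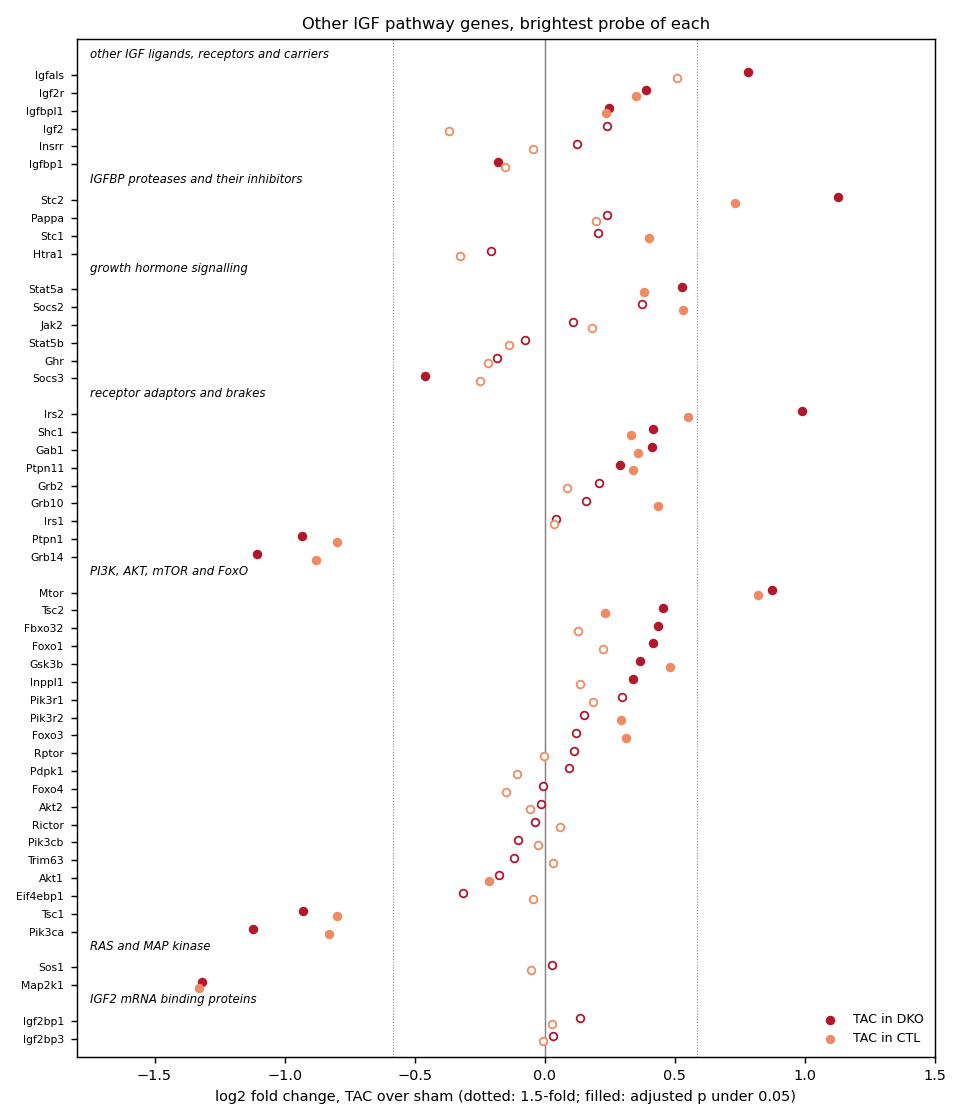
Log2 fold change of TAC over sham for the brightest probe of 49 other genes of the pathway, grouped by role, in DKO and in CTL hearts, filled where the adjusted p was under 0.05, with dotted lines at 1.5-fold. *Stc2*, *Irs2*, *Mtor* and *Igfals* lie farthest to the right in DKO hearts (1.13, 0.99, 0.87 and 0.78), and *Map2k1*, *Pik3ca*, *Grb14*, *Ptpn1* and *Tsc1* lie to the left of the 1.5-fold line in both genotypes.

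Some markers of the cells of the heart moved with surgery, beside the rises of *Igf1*, *Igf1r*, *Igfbp4* and *Igfbp6*. Markers counted below as risen or fallen passed by adjusted p alone, as did 28% of all probes in DKO and 22% in CTL hearts. They were not tested under the other scalings. Of 9 cardiomyocyte markers 2 rose and 6 fell in DKO and 1 rose and 5 fell in CTL hearts. Their summed intensity was 111146 to 128197 in TAC DKO and 109021 to 135143 in TAC CTL hearts, below the 138874 to 144235 in sham DKO and the 138250 to 149853 in sham CTL hearts. Of 10 genes of activated fibroblasts and matrix, 6 rose and 1 fell after TAC in DKO hearts and 7 rose and 1 fell in CTL hearts, while *Cthrc1*, *Thbs4* and *Postn* were not above background on any array. One of the 7 that rose in CTL hearts was *Postn* (0.22), at this level. Their summed intensity was 5454 to 12097 in TAC DKO and 4775 to 9872 in TAC CTL hearts, and 2443 to 3638 in sham DKO and 2401 to 4357 in sham CTL hearts. Of 8 smooth muscle and pericyte markers 4 rose and 0 fell in DKO hearts and 3 rose and 0 fell in CTL hearts. Their sums were 5524 to 11614 in TAC DKO and 5573 to 10467 in TAC CTL hearts, and 4059 to 5363 in sham DKO and 5653 to 7531 in sham CTL hearts, without overlap in DKO and with overlap in CTL hearts. Of 9 fibroblast markers 4 rose and 3 fell in DKO and 4 rose and 2 fell in CTL hearts, with sums that overlapped between all groups. Of 10 macrophage and leukocyte genes 3 rose and 3 fell in DKO and 2 rose and 3 fell in CTL hearts, with *Itgam* and *Ptprc* at background. Of 3 epicardial markers 0 rose and 0 fell in either genotype. Of 4 adipocyte and 3 atrial markers 1 each rose in DKO hearts, 0 rose in CTL hearts and 0 fell. Beside the fall of *Igfbp7*, of 10 endothelial genes 2 rose and 0 fell in DKO hearts, and 0 rose and 4 fell in CTL hearts. Their sums were 9629 to 12407 in TAC DKO, 9408 to 11397 in TAC CTL, 9455 to 11761 in sham DKO and 11409.7 to 14257 in sham CTL hearts. Beside the genotype difference of *Igf1r* after TAC, *Tcf21* was the 1 of 9 fibroblast markers that passed (0.36, adjusted p = 0.028 from limma). The median log2 fold change of these 9 markers for DKO over CTL after TAC had the opposite sign (-0.17). The part of these cells in the member genes' values was not tested.

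After subtraction of each group's mean, the probes that varied most like *Igf1* over the 20 arrays were those of the glutamate transporter *Slc1a3*, the secreted serpin *Serpinf1* and the collagen *Col4a1* (Pearson's r of 0.91, 0.90 and 0.90). For *Igfbp6* they were the collagens *Col14a1* and *Col6a2* and the matrix gene *Mxra8* (0.88, 0.85 and 0.83), and for *Igfbp7* *Ppic*, *Tax1bp3* and *Ttpal* (0.91, 0.90 and 0.89). *Igf1r* was most like *Pate5*, *Capg* and *Kcnab1* (0.86, 0.86 and 0.85), *Insr* most like *Vldlr*, *Mme* and *Arhgap20* (0.86, 0.83 and 0.81), and *Igfbp4* most like *Vasn*, *Pwwp3a* and *Hp1bp3* (0.85, 0.85 and 0.80). *Igfbp5* was most like *Rps29*, *Prkcq* and *Zcchc24* (0.89, 0.87 and 0.85), and *Igfbp3* most like *Hspa2*, *Golga1* and *Habp4* (0.79, 0.79 and 0.77). These are the 3 highest of 15358 probes above background, taken from the same arrays and normalization, and are given as a description.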

How the data were processed

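Total RNA of left ventricles was labelled and hybridised to Illumina bead chips, 1 array for each of 20 mice. The authors processed the arrays with GenomeStudio 2010.3, per the labels, and deposited linear intensities, whose sorted values were equal to within 0.2% for at least 99.91% of probes among TAC and at least 97.5% among sham arrays, but for at most 0.413% between the sets. The sources used here do not name the background steps. Of 45281 probes, 34885 name 1 gene, 18 several and 10378 none, and symbols were updated through gene identifiers for 34807. All 20 arrays were then brought to common quantiles and taken to log2, with nothing added. Group means were fitted with limma 3.58.1 in R 4.3.3 (16 residual and 6.64 prior degrees of freedom). Each probe had 1 spread shared by the 4 groups, so that intervals and p-values in sham hearts also carry the spread of the TAC arrays. Precision is limited by the number of arrays. No array or column was left out, and no 2 arrays were identical. Groups came from the labels. Each p-value sets a difference against the spread between the arrays of these mice, moderated over all probes. For TAC against sham that difference also holds the normalization set.

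The members and gene lists were chosen with earlier results of these data known. Every member probe is reported, the brightest probe stands for a gene, and of the other pathway genes those called are named. Alternatives covered scaling, a constant of 16, a filter on dim probes, the prior, the samples fitted, array weights, a replicate block, each array left out and, chosen after the data were seen, 2 TAC DKO arrays left out together. The code was tested on simulated data. Promoter windows are from RefSeq (GRCm38.p6).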

Additional observations from a re-analysis of the deposited data

Results flagged for a closer look

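*Igfbp7* on ILMN_2764588 was at 6207 in sham DKO replicate 1, apart from the other 3 sham DKO arrays at 6594 to 6659. The gap made up 0.856 of the range of the group, which was therefore noted as holding a sample far from the others. Chance gives about 1 such group in 20, and 1 was found among the 64 groups of member probes examined.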

How the results depend on the processing

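The genotype and interaction counts of called member probes stayed at 0 under all alternatives run, except that 1 probe (*Igf1r*) counted after TAC and 1 over both surgeries at an adjusted p alone. For TAC the counts of 6 (DKO) and 5 (CTL) were 10 and 10 at an adjusted p alone, 5 and 3 with median-centred arrays, and 5 to 7 in both with 1 array left out. The 9 and 7 other pathway genes called were 22 and 22 at an adjusted p alone, and 8 to 10 and 7 to 8 with 1 array left out. Median centring turned *Igfbp4* ILMN_1258988 to -0.0118 in DKO and -0.00992 in CTL hearts and *Insr* ILMN_1242794 to -0.0954 and -0.184, and on the deposited scale *Insr* ILMN_1251719 in DKO hearts was 0.165, where it was -0.12 with common quantiles. Of all probes called for TAC, 36.6% were higher in DKO and 34.1% in CTL hearts, against 4.67% and 4.61% with median centring and 22.8% and 23.8% with cyclic loess, and on the deposited scale the median of all probes was shifted by 0.29 and 0.28. Replicate numbers are shared by the groups, and the labels do not say whether they pair the mice. Of 10 same-numbered pairs, 5 correlated best with their own number (r from -0.26 to 0.51). The main fit used no pairing. With a replicate block 7 member probes were called for TAC in DKO and 6 in CTL hearts, 9 pathway genes in each, and 0 in the other comparisons, and *Igfbp7* passed in CTL hearts (-0.39, adjusted p = 0.012). With median centring the *Igfbp5* probes, which did not pass, also had the opposite sign in DKO hearts (-0.27 to -0.37). In all, 3092 of the alternative values stayed on their side of the threshold, of which 121 had the opposite sign and passed under neither setting, 58 no longer passed, 18 newly passed, 7 counts moved and 5 turned round while passing under one of the settings. The arrays without which probes of *Igf1r*, *Insr*, *Igfbp3* and *Igfbp5* no longer passed are named in the report. Probes within reach of background (58.0) limit what can be said of *Igfbp2*, 3 of 4 *Igf1r* probes and 4 of 5 *Igfbp7* probes.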
